A study of Homo sapiens with 11 samples.

Results

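The expression of 10 genes for amino acid transporters of the plasma membrane was followed through HCT116 cells kept with GTEA1, with GTEA7 or with DMSO. The genes are SLC7A11, SLC7A5, SLC3A2, SLC1A5, SLC1A4, SLC38A1, SLC38A2, SLC7A1, SLC6A9 and SLC43A1. They were selected by symbol, without a threshold on measured values but with earlier results of these data known, from 61464 rows of the count table. Each of the 10 symbols matched 1 Ensembl ID, and all 10 had enough reads to be tested. HCT116, an established line from a human colorectal carcinoma, is epithelial, and the labels give it a ras mutation. GTEA1 and GTEA7 are extracts of triterpenoids from Ganoderma, a genus of bracket fungi. Each is a mixture, and the labels state neither its makeup nor a dose. All cells were harvested at 48 h, and there were 4 GTEA1, 4 GTEA7 and 3 DMSO libraries of polyadenylated RNA. Every library carries the same batch number, the genotype was the same throughout, and a single cell line was used. The title of the series names stemness and migration of colon cancer cells as its subject.

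Amino acids cross the plasma membrane through carriers of several SLC families, many of which swap one amino acid for another. SLC3A2, the glycoprotein 4F2hc or CD98, is a heavy chain that brings light chains of the SLC7 family to the cell surface. With SLC7A11 (xCT) it forms the antiporter that takes up cystine for glutathione synthesis and releases glutamate, and with SLC7A5 (LAT1) the exchanger for leucine and other large neutral amino acids. Several of these genes are known targets of ATF4, the transcription factor that is translated when eIF2 is phosphorylated in amino acid shortage or other stress, and SLC7A11 is also a known target of NRF2. Rapidly growing colon carcinoma cells are known to rely on such uptake.

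Total counts per library were 13742326 to 16433111 in GTEA1, 14955685 to 19304211 in GTEA7 and 13866350 to 17431515 in DMSO. The first principal component of log2 CPM, counts scaled to library size and TMM factors, held 77.4% of the variance. Of 8 epithelial marker genes 7 had enough reads to be tested, and EPCAM was at 359 ± 12 CPM in GTEA1, 278 ± 9.4 in GTEA7 and 234 ± 5.6 in DMSO (SD, n = 4, 4 and 3). The exception was VIL1, with 28 counts in all. With GTEA1, 4 of the 7 rose, among them the keratin KRT19 (1.18 ± 0.038, log2 fold change over DMSO with its SE). The 3 that fell were KRT8 (-0.26 ± 0.034), KRT18 (-0.27 ± 0.038) and the intestinal transcription factor CDX2 (-0.57 ± 0.094). Among all tested genes, 35.6% were called higher and 36.2% lower. With counts scaled by library size only, 3 of the 7 rose and 3 fell. Of 12 markers of blood, stromal, endothelial and liver cells, 11 were below the filter on low counts, and COL1A1 was at 40.8 ± 2 CPM in GTEA1, 39.6 ± 3.9 in GTEA7 and 51.8 ± 1.3 in DMSO. Nothing in the labels says that replicates were separate cultures, so the p-values measure the spread between these libraries, which may be technical. Counts in bulk RNA are relative to all RNA in the library, so fewer cells that express a gene and less of its RNA per cell cannot be told apart, and they give neither protein nor transport.

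To compare the genes with each other, levels were divided by exon length. The 10 genes together reached 853 ± 26 CPM per kb in GTEA1, 342 ± 3.8 in GTEA7 and 321 ± 1.5 in DMSO (SD, n = 4, 4 and 3). They took 0.479% to 0.518% of all counts in the GTEA1 libraries, 0.222% to 0.228% in GTEA7 and 0.213% to 0.218% in DMSO. SLC38A2 (SNAT2), a sodium-coupled carrier of small neutral amino acids, was the most abundant in every group, at 348 ± 14 CPM per kb in GTEA1, 171 ± 2.1 in GTEA7 and 172 ± 4.6 in DMSO. Its share of the summed level was 40.8% ± 0.44 in GTEA1, 50.1% ± 0.78 in GTEA7 and 53.5% ± 1.2 in DMSO. SLC7A5 came next in all groups, with a share of 22.7% ± 0.24 in GTEA1, 12.5% ± 0.33 in GTEA7 and 12.4% ± 0.56 in DMSO.

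In GTEA7 and in DMSO the order below these was the same: SLC38A1, SLC1A5, SLC3A2, SLC7A1, SLC7A11, SLC1A4, SLC43A1 and SLC6A9. In GTEA1 it was SLC3A2, SLC1A5, SLC7A11, SLC38A1, SLC7A1, SLC1A4, SLC43A1 and SLC6A9. SLC43A1 and SLC6A9, the last pair, overlapped between libraries in each group, and no other neighbours in the order did. SLC7A11 made up 6.43% ± 0.2 of the summed level in GTEA1, 3.6% ± 0.13 in GTEA7 and 1.49% ± 0.033 in DMSO. Its exons span 9645 bases, against 5178 for SLC3A2 and 4745 for SLC7A5, so levels per length depend on the annotated exons being those the cells use.

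**Figure D1:**
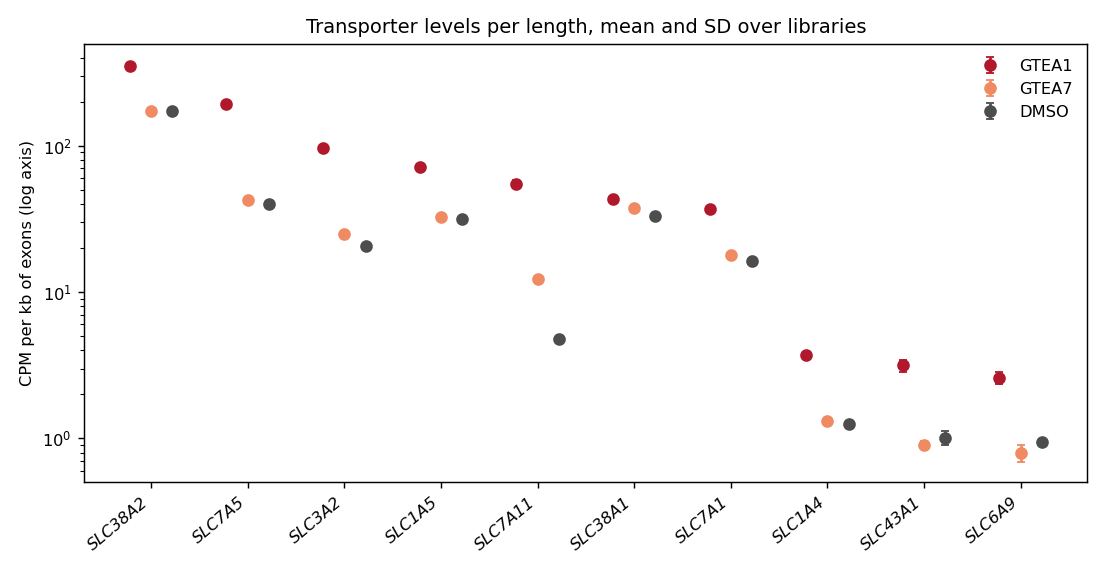
Levels of the 10 transporter genes in CPM per kb of annotated exons, on a log axis. Points are group means, bars the SD over 4 GTEA1, 4 GTEA7 and 3 DMSO libraries; SLC38A2 is highest in all groups, and SLC7A11 is at 54.9 in GTEA1, 12.3 in GTEA7 and 4.79 in DMSO.

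The first comparison set GTEA1 against DMSO. All 10 transporter genes rose, and 9 of them by at least 2-fold (edgeR's quasi-likelihood test, Benjamini-Hochberg adjusted p under 0.05). Among all 17963 tested genes, 35.6% were called higher and 8.56% were called higher by at least 2-fold. For each of the 10, every GTEA1 library lay above every DMSO library, which held for 33.9% of all tested genes. The median log2 fold change of the 10 was 1.50, against -0.01 over all tested genes, and the range was 0.38 to 3.52. When counts were scaled by library size only, the median of all genes moved to -0.17 and the calls over all genes split into 4828 higher and 8179 lower, in place of 6390 and 6505. All 10 transporter genes were called higher under that scaling too.

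**Figure D2:**
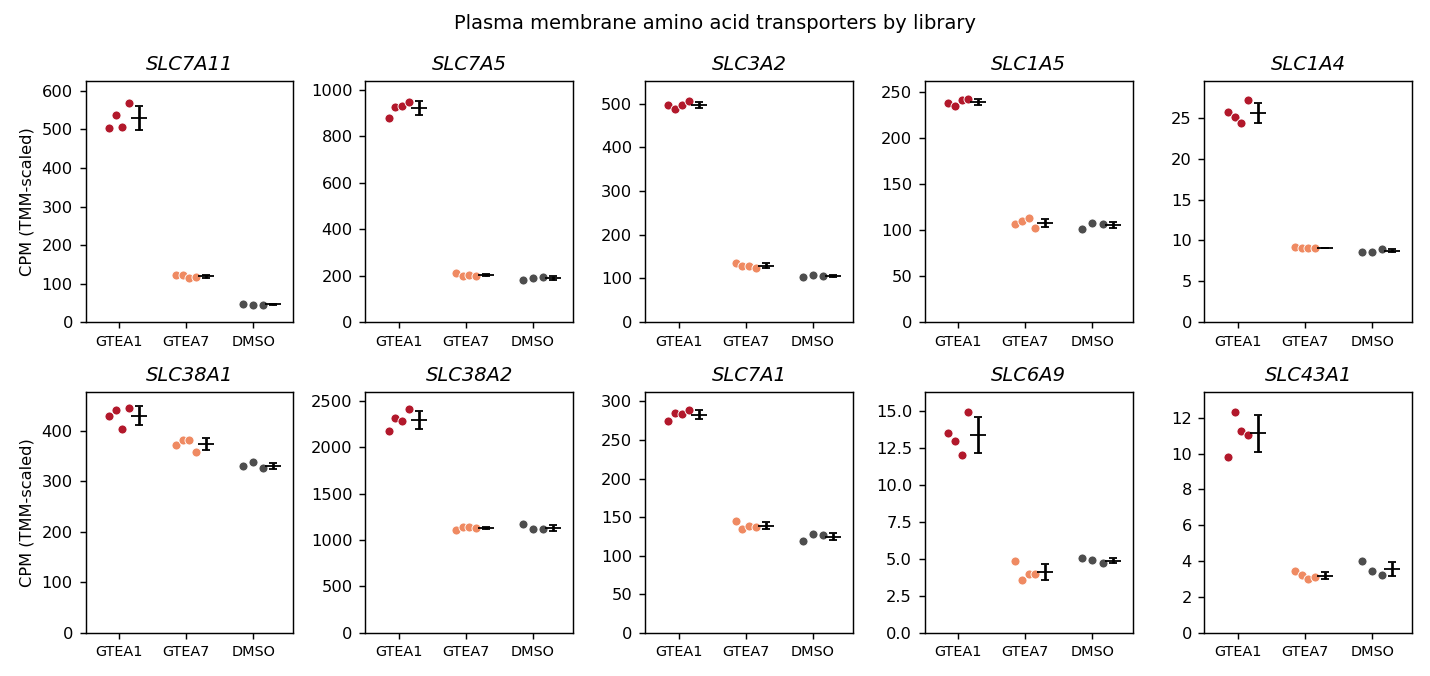
CPM of each transporter gene in every library, on linear axes from 0. Coloured points are libraries, the black mark and bar the mean and SD (n = 4 GTEA1, 4 GTEA7 and 3 DMSO); GTEA1 lies above the other groups in every panel, and GTEA7 stands clear of DMSO most plainly for SLC7A11, at 114 to 123 CPM against 45.5 to 47.6.

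Windows around transcript starts of these genes are shown because the genes rose together with GTEA1. RefSeq promoter windows on GRCh38.p14, from 250 bases before to 50 bases after a transcript start, were at hand for 9 of the 10 genes, in 16 windows, since some genes have several starts. SLC7A11 had none. The letters TGATGNAA, the core of the C/EBP-ATF element that ATF4 binds with a partner, were searched on both strands and stood in 5 of the 16 windows, 1 each of SLC3A2, SLC1A5, SLC1A4, SLC38A1 and SLC7A1. Of all 35116 windows in the table, 3.62% hold them. TGACNNNGC, the core of the antioxidant response element bound by NRF2, stood in 4 of the 16 windows, against 13.3% of all windows. These were 1 each of SLC7A5, SLC3A2, SLC1A5 and SLC7A1. CACGTG, the E-box bound by MYC and related factors, stood in 3, 1 each of SLC7A5, SLC1A5 and SLC43A1, against 7.26%. No matches of these motifs overlap each other. In SLC3A2, SLC1A5, SLC1A4 and SLC38A1, every match lay in a window downstream of another start of the same gene. A match of letters is not a binding site, and none in a window says nothing about the rest of the gene.

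A window each of SLC3A2, SLC1A4, SLC7A1, SLC38A1 and SLC7A5 follows, 5′ to 3′ on the strand of the gene. Every match of the 3 motifs is in capitals. SLC3A2, SLC1A4 and SLC38A1 have further windows, which hold none of the 3 motifs. The windows printed for these genes were chosen because they hold TGATGNAA. On GRCh38.p14 they lie for SLC3A2 at chr11:62881449-62881748 (plus strand), SLC1A4 at chr2:64989149-64989448 (plus), SLC7A1 at chr13:29595639-29595938 (minus), SLC38A1 at chr12:46266467-46266766 (minus) and SLC7A5 at chr16:87869458-87869757 (minus). Counted from the transcript start, with base 1 the first transcribed base, TGATGNAA or its reverse complement lies at 38 to 45 in SLC3A2, -7 to 1 in SLC1A4, 8 to 15 in SLC7A1 and -4 to 4 in SLC38A1. The SLC7A5 window, shown as an example without these letters, holds TGACNNNGC and CACGTG. The windows of SLC38A2, SLC6A9 and SLC43A1 lack TGATGNAA as well. SLC38A1 had the smallest rise of the 10 with GTEA1. Whether these letters bear on the size of a rise was not tested.
SLC3A2: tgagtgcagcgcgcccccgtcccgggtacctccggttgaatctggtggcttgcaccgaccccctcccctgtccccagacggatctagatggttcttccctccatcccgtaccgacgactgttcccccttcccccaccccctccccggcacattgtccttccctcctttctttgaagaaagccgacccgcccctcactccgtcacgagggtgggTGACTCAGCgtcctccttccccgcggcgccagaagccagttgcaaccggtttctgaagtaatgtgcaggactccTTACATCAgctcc
SLC1A4: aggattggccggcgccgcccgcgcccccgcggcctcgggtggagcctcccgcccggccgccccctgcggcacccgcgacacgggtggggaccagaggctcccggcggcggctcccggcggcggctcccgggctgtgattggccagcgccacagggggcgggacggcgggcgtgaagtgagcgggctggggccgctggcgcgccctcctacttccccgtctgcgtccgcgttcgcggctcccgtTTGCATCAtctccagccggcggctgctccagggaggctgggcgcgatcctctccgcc
SLC7A1: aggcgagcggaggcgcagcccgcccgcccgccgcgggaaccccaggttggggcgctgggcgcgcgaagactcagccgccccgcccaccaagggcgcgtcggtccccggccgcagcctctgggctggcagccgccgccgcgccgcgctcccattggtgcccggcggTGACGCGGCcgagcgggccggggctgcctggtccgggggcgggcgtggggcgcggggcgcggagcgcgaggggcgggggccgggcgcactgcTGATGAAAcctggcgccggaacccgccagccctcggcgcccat
SLC38A1: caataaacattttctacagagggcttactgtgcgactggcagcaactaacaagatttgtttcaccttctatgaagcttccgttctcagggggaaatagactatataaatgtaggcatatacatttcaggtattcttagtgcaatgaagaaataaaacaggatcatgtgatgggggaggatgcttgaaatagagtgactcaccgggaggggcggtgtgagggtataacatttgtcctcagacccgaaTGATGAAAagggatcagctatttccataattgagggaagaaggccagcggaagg
SLC7A5: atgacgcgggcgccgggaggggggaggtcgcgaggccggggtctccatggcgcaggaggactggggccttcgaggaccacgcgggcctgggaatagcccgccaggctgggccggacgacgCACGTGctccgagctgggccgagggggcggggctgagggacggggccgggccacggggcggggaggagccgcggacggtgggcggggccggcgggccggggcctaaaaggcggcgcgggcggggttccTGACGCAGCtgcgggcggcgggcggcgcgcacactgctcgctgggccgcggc

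The cystine transporter light chain SLC7A11 (ENSG00000151012) had 504, 537, 507 and 570 CPM in the GTEA1 libraries, against 47.6, 45.5 and 45.6 CPM in DMSO. Every GTEA1 library was far above every DMSO library, and the rise was 11.4-fold (log2 fold change 3.52 ± 0.046 SE, adjusted p = 9.6e-49). It was rank 65 from the highest among the log2 fold changes of all tested genes. Its antisense transcript SLC7A11-AS1 shares 865 bases of exon with it, on the other strand. That gene was at 16.8 ± 3.3 CPM in GTEA1 and 0.602 ± 0.056 in DMSO, and rose as well (4.80 ± 0.19, adjusted p = 2.7e-26). Whether counting used the strand is not given in the sources used here, and reads in the shared stretch cannot be assigned to either gene. With 1089 counts over all libraries, against 41016 for SLC7A11, the antisense gene is the far smaller of the pair.

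The heavy chain SLC3A2 (ENSG00000168003) had 496, 489, 498 and 505 CPM in GTEA1, against 104, 109 and 106 CPM in DMSO. The GTEA1 values were tightly grouped and 4.68-fold higher (2.23 ± 0.038, adjusted p = 6.2e-44). SLC7A5 (ENSG00000103257), the leucine exchanger light chain, had 879, 925, 927 and 948 CPM in GTEA1, against 180, 191 and 195 CPM in DMSO. It was 4.88-fold higher in GTEA1 (2.29 ± 0.038, adjusted p = 3.1e-44), close to the value of its heavy chain. SLC7A5P1, a pseudogene of SLC7A5, stayed at 0.389 CPM in GTEA1, 0.335 in GTEA7 and 0.371 in DMSO, with 64 counts in all, too few to test. Another pseudogene, SLC7A5P2, had 0 counts in every library, and AC126696.2, antisense to 271 bases of SLC7A5 exon, had 24 in all.

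Among the neutral amino acid carriers, SLC1A5 (ENSG00000105281), the glutamine exchanger ASCT2, had 238, 235, 241 and 242 CPM in GTEA1, against 102, 108 and 106 CPM in DMSO. The groups were far apart (1.18 ± 0.038, adjusted p = 6.2e-32). AC008622.2, antisense to SLC1A5, had 2 counts in all. SLC1A4 (ENSG00000115902), its relative ASCT1 for alanine, serine and cysteine, was much less abundant, at 25.8, 25.1, 24.4 and 27.2 CPM in GTEA1, against 8.63, 8.64 and 8.97 CPM in DMSO. It rose somewhat more, 2.93-fold (1.55 ± 0.079, adjusted p = 2e-23).

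SLC38A2 (ENSG00000134294) had 2180, 2312, 2284 and 2410 CPM in GTEA1, against 1168, 1117 and 1115 CPM in DMSO. The groups did not overlap, and the log2 fold change was 1.02 ± 0.036 (adjusted p = 4.8e-30), or 0.86 with library size only. SLC38A1 (ENSG00000111371), the related glutamine carrier SNAT1, had 429, 442, 404 and 446 CPM in GTEA1, against 330, 338 and 326 CPM in DMSO. Its rise was the smallest of the 10, 1.3-fold (0.38 ± 0.036, adjusted p = 2.4e-13), although the groups did not overlap. With library size only it was 0.22 and still called (adjusted p = 6.2e-07).

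SLC7A1 (ENSG00000139514), the arginine and lysine carrier CAT1, had 274, 285, 284 and 289 CPM in GTEA1, against 119, 128 and 127 CPM in DMSO, a 2.27-fold rise (1.18 ± 0.037, adjusted p = 2.5e-32). SLC6A9 (ENSG00000196517), the glycine transporter GlyT1, had 13.5, 13, 12.1 and 15 CPM in GTEA1, against 5.05, 4.91 and 4.69 CPM in DMSO (1.45 ± 0.11, adjusted p = 1.4e-16). SLC43A1 (ENSG00000149150), the leucine facilitator LAT3, had 9.82, 12.3, 11.3 and 11.1 CPM in GTEA1, against 3.99, 3.46 and 3.24 CPM in DMSO (1.64 ± 0.12, adjusted p = 3.1e-17). These last genes rested on few reads, 1298 and 1040 over all libraries, and had the widest errors of the 10. CCDC24, a gene on the other strand, shares 404 bases of exon with SLC6A9 and was at 16.8 CPM in GTEA1 and 15.8 in DMSO (0.08 ± 0.08, adjusted p = 0.35). CCDC24 is the larger of this pair, with 2817 counts over all libraries, against 1298 for SLC6A9. Here too, reads in the shared stretch cannot be assigned to either gene. SLC38A4-AS1, a further antisense gene on the list of possible overlaps, shares no annotated exon with the 10 genes and was at 8.34 ± 0.66 CPM in GTEA1, 7.40 ± 0.37 in GTEA7 and 6.06 ± 0.59 in DMSO.

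GTEA7 against DMSO gave a narrower change. Of the 10 genes, 5 rose, 0 fell and 5 did not pass, where 12% of all tested genes were called higher and 10.4% lower. Only SLC7A11 rose by at least 2-fold, as 0.295% of all tested genes did. It had 123, 121, 114 and 118 CPM in GTEA7, against 47.6, 45.5 and 45.6 CPM in DMSO, with no overlap. The rise was 2.57-fold (1.36 ± 0.046, adjusted p = 8.5e-29) and stood at rank 22 from the highest among all tested genes. SLC7A11-AS1 was at 1.18 ± 0.14 CPM in GTEA7 and 0.602 ± 0.056 in DMSO (0.98 ± 0.32, adjusted p = 0.022).

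The other genes that rose with GTEA7 moved by far less. SLC3A2 had 136, 129, 128 and 124 CPM in GTEA7, against 104, 109 and 106 CPM in DMSO (0.28 ± 0.038, adjusted p = 1e-07). SLC38A1 had 373, 382, 382 and 358 CPM in GTEA7, against 330, 338 and 326 CPM in DMSO (0.18 ± 0.036, adjusted p = 0.00019). SLC7A1 had 145, 135, 138 and 137 CPM in GTEA7, against 119, 128 and 127 CPM in DMSO (0.16 ± 0.038, adjusted p = 0.0015). In each of these 3 genes the libraries of the groups were separate.

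SLC7A5 had 211, 199, 202 and 197 CPM in GTEA7, against 180, 191 and 195 CPM in DMSO (0.10 ± 0.037, adjusted p = 0.038). Its call was lost with library size only (0.05, adjusted p = 0.34), without DMSO replicate 1 (0.07, adjusted p = 0.25) or 2 (0.11, adjusted p = 0.062), without GTEA7 replicate 1 (0.08, adjusted p = 0.14), 2 (0.11, adjusted p = 0.055) or 3 (0.11, adjusted p = 0.059). Blocking by replicate number also ended it (0.10, adjusted p = 0.053).

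For each of the 5 genes that did not pass with GTEA7, the upper bound of the 95% interval lay below its own log2 fold change with GTEA1. The log2 fold change of SLC38A2 was -0.002, with a 95% interval of -0.073 to 0.069, and its CPM were 1112 to 1145 in GTEA7 and 1115 to 1168 in DMSO. SLC1A5 was at 0.04 (-0.041 to 0.115, adjusted p = 0.55), with 103 to 113 CPM in GTEA7 and 102 to 108 in DMSO. SLC1A4 was at 0.06 (-0.13 to 0.24, adjusted p = 0.73), although its GTEA7 libraries, at 9.02 to 9.16 CPM, all lay above the DMSO libraries, at 8.63 to 8.97. Such a separation upward was seen for 6 of the 10 genes and for 15.6% of all tested genes. SLC6A9 was at -0.26 (-0.52 to 0.012, adjusted p = 0.17), with 3.58 to 4.89 CPM in GTEA7 and 4.69 to 5.05 in DMSO. SLC43A1 was at -0.16 (-0.46 to 0.13, adjusted p = 0.48), with 3.01 to 3.46 CPM in GTEA7 and 3.24 to 3.99 in DMSO.

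**Figure D3:**
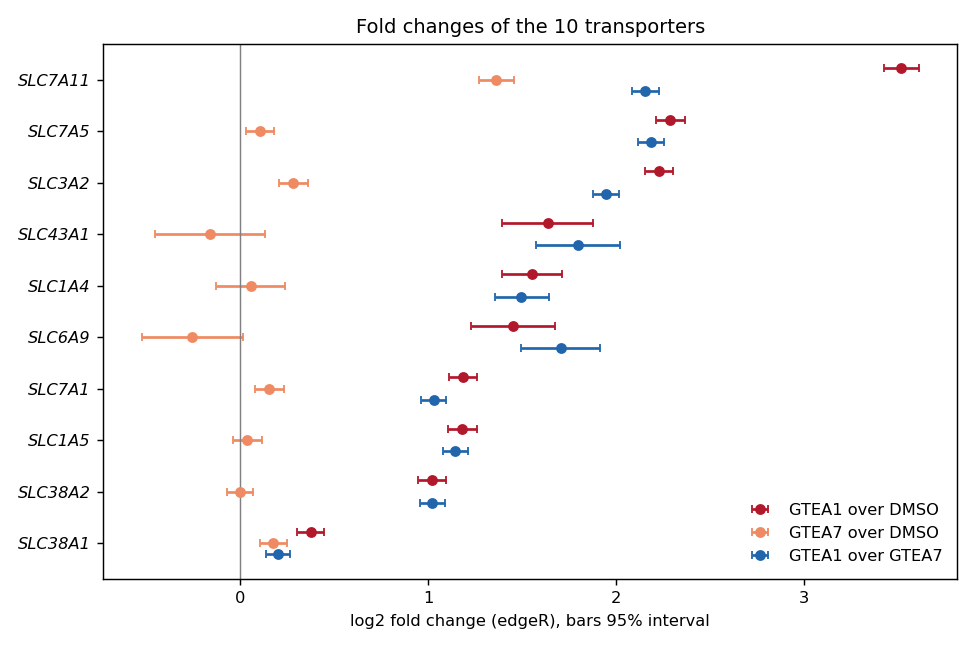
Log2 fold changes of the 10 genes from the edgeR fit of all 11 libraries, with 95% intervals, ordered by the change with GTEA1. Every interval for GTEA1 over DMSO lies above 0, while for GTEA7 over DMSO those of SLC1A5, SLC1A4, SLC38A2, SLC6A9 and SLC43A1 include 0.

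Set directly against each other, GTEA1 was higher than GTEA7 for all 10 genes and by at least 2-fold for 9, where 36.4% and 8.62% of all tested genes were. Every GTEA1 library lay above every GTEA7 library for all 10, as for 32.5% of all tested genes. Of all tested genes 36.2% were called lower. The largest differences were those of SLC7A5 (2.18 ± 0.034, adjusted p = 1.5e-45), SLC7A11 (2.16 ± 0.036, adjusted p = 6.6e-44) and SLC3A2 (1.95 ± 0.033, adjusted p = 6.8e-44). For SLC7A11 that is 504 to 570 CPM in GTEA1, against 114 to 123 CPM in GTEA7. SLC43A1 (1.80 ± 0.11), SLC6A9 (1.71 ± 0.1) and SLC1A4 (1.50 ± 0.071) followed, then SLC1A5 (1.15 ± 0.034), SLC7A1 (1.03 ± 0.033) and SLC38A2 (1.02 ± 0.033). SLC38A1 was the exception in size, with 404 to 446 CPM in GTEA1 and 358 to 382 CPM in GTEA7 (0.20 ± 0.033, adjusted p = 4.1e-07). With library size only it was at 0.09 (adjusted p = 0.012) and all genes had a median of -0.11. The doses are not stated, so the extracts may not have been compared at like amounts.

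The light chains were also read against their shared heavy chain, as the ratio of levels per length in each library. SLC7A11 over SLC3A2 was 0.545, 0.59, 0.547 and 0.605 in GTEA1, 0.485, 0.506, 0.478 and 0.512 in GTEA7, and 0.246, 0.225 and 0.231 in DMSO. The 3 groups did not overlap, and both extracts had more SLC7A11 per SLC3A2 than DMSO had. The mean log2 ratio was -0.81 ± 0.077 in the 4 GTEA1 libraries and -2.10 ± 0.064 in the 3 of DMSO (SD), a difference of 1.29 (exact two-sided permutation p = 0.0571, the smallest that 4 against 3 libraries can give). In GTEA7 it was -1.02 ± 0.048 (SD, n = 4), 1.08 above DMSO (exact permutation p = 0.0571). GTEA1 was 0.21 above GTEA7 (exact permutation p = 0.0286, the smallest for 4 against 4).

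SLC7A5 over SLC3A2 behaved otherwise. It was 1.93, 2.07, 2.03 and 2.05 in GTEA1, 1.69, 1.69, 1.73 and 1.74 in GTEA7, and 1.89, 1.92 and 2.01 in DMSO. GTEA1 and DMSO overlapped (log2 difference 0.06, exact permutation p = 0.114), whereas every GTEA7 library lay below every DMSO library (-0.18, exact permutation p = 0.0571). GTEA1 was 0.24 above GTEA7 (exact permutation p = 0.0286). With so few libraries, none of these 6 comparisons of ratios could pass a Benjamini-Hochberg adjustment at 0.05, whatever their values. The smallest adjusted p was 0.0685, and this does not tell whether the ratios differ.

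**Figure D4:**
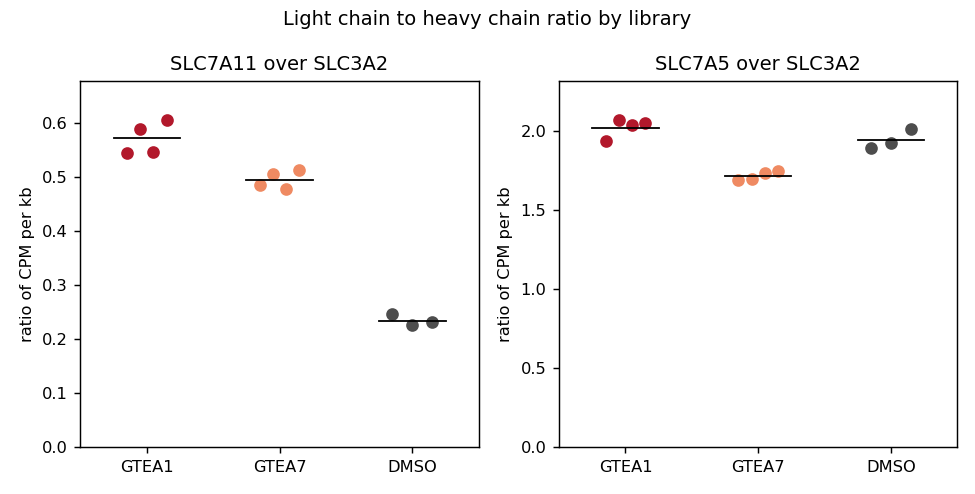
Ratio of light chain to heavy chain in each library, both in CPM per kb of exons, on axes from 0. Points are libraries and lines group means; SLC7A11 over SLC3A2 lies at 0.545 to 0.605 in GTEA1, 0.478 to 0.512 in GTEA7 and 0.225 to 0.246 in DMSO, and SLC7A5 over SLC3A2 lies between 1.69 and 2.07 throughout.

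The rise with GTEA1 was not shared by most of the other plasma membrane amino acid transporters examined. The 10 genes and these others were chosen with earlier results of these data known. The contrast between them may in part reflect that choice. Of 31 others on a list, 16 had enough reads to be tested, of which 8 fell, 2 rose and 6 did not pass, with a median log2 fold change of -0.31. Of all tested genes 36.2% were called lower and 35.6% higher. The number that rose was 1 without DMSO replicate 1 or GTEA1 replicate 2, 3 without DMSO replicate 3 and 4 without GTEA1 replicate 4. In 3 pairs, picked after their values were seen, a relative of one of the 10 genes fell. SLC7A2, the cationic carrier CAT2, fell to 18.7 ± 1.9 CPM in GTEA1, against 55.4 ± 4.2 in DMSO (-1.56 ± 0.062, adjusted p = 1.2e-27), while SLC7A1 rose. SLC7A8 (LAT2), another light chain of SLC3A2, fell to 7 ± 0.62 CPM in GTEA1, against 16.5 ± 0.86 in DMSO (-1.23 ± 0.091, adjusted p = 3e-17), while SLC7A5 rose. SLC7A6 and SLC7A7, also of the SLC7 family, did not pass with GTEA1 (0.13 ± 0.073, adjusted p = 0.096, and 0.25 ± 0.37, adjusted p = 0.55). SLC43A2 (LAT4) fell to 4.16 ± 0.38 CPM, against 9.51 ± 0.88 in DMSO (-1.20 ± 0.12, adjusted p = 3.2e-12), while SLC43A1 rose.

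The glutamate transporters SLC1A3 (-0.95 ± 0.093) and SLC1A2 (-2.91 ± 0.35) fell with GTEA1 as well, as did the aromatic amino acid transporter SLC16A10 (-0.94 ± 0.081), the cystine and dibasic transporter subunit SLC7A9 (-1.41 ± 0.47) and SLC38A5 (-0.21 ± 0.069). SLC1A2 and SLC7A9 had only 0.225 and 0.244 CPM in GTEA1, against 1.77 and 0.667 in DMSO. Those that rose were the taurine transporter SLC6A6, at 274 ± 9.2 CPM in GTEA1, against 153 ± 0.87 in DMSO (0.84 ± 0.036, adjusted p = 1.7e-26), and SLC38A3 (0.37 ± 0.14, adjusted p = 0.016), whose call was lost with library size only (0.21, adjusted p = 0.18). SLC1A1, the glutamate and cysteine carrier EAAT3, was at -0.03 ± 0.052 and with library size only at -0.20 and called lower (adjusted p = 0.00084).

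With GTEA7, 4 of the 16 rose and 0 fell, where 12% of all tested genes were called higher and 10.4% lower. The split was 3 and 1 with library size only or without GTEA7 replicate 2, and 4 and 1 without DMSO replicate 1. It was 3 and 0 with the Wald test of DESeq2 and without DMSO replicate 2 or 3. Without the low-count filter, when more of the list was tested, 4 rose and 1 fell. The 4 were SLC1A1, at 58.3 ± 2.3 CPM in GTEA7, against 42.7 ± 0.94 in DMSO (0.45 ± 0.049, adjusted p = 2.8e-10), SLC38A5 (0.28 ± 0.064, adjusted p = 0.00094), SLC7A2 (0.19 ± 0.051, adjusted p = 0.0048) and SLC7A6 (0.21 ± 0.071, adjusted p = 0.028). SLC7A6 was not called with library size only (0.16, adjusted p = 0.11). Between the extracts, GTEA1 was lower than GTEA7 for 9 of the 16 and higher for 2, where 36.2% and 36.4% of all tested genes were. The 10 lysosomal amino acid transporters that could be tested split evenly with GTEA1, 5 higher and 5 lower, at a median of -0.01, much as all tested genes did (35.6% and 36.2%), and with library size only 2 were higher and 5 lower. The exporter SLC36A1 fell (-1.27 ± 0.073) and the sialic acid and acidic amino acid carrier SLC17A5 rose (0.37 ± 0.045). With GTEA7, 2 of those 10 rose and 0 fell, or 0 and 1 with library size only, against 12% and 10.4% of all tested genes.

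**Figure D5:**
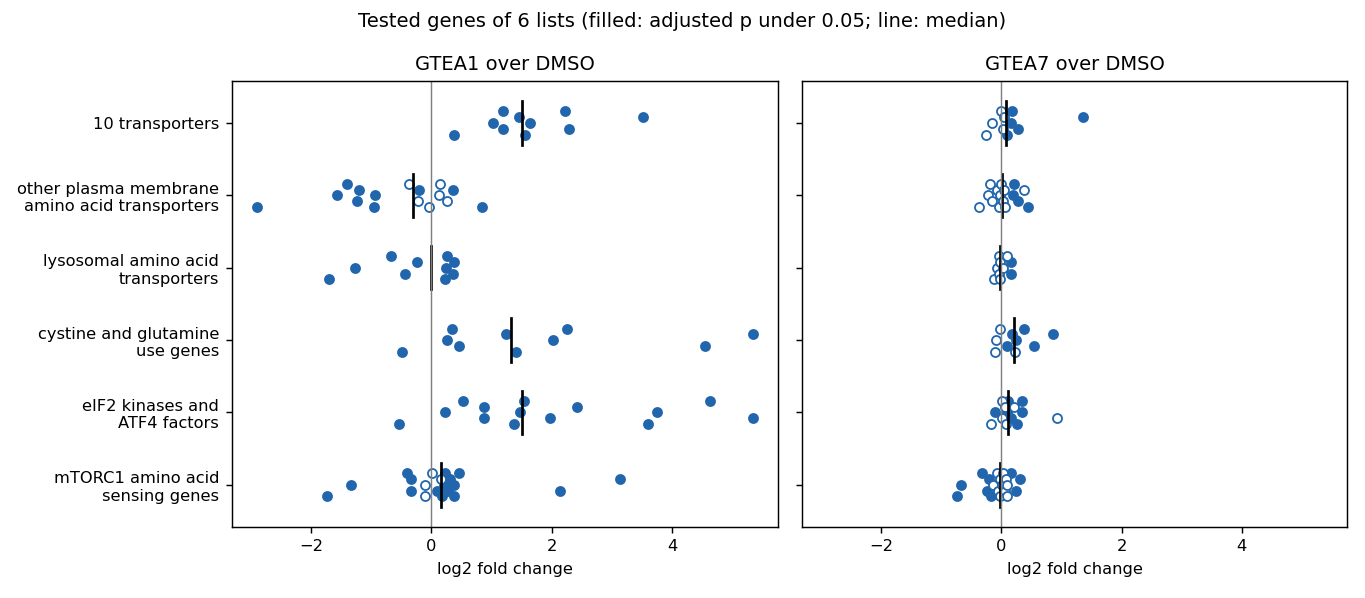
Log2 fold changes of every tested gene of 6 lists, GTEA1 over DMSO on the left and GTEA7 over DMSO on the right. Filled points passed the test, open points did not, and black lines are medians. The 10 transporters have a median of 1.50 with GTEA1, against -0.31 for the other plasma membrane amino acid transporters. All lists were chosen with earlier results of these data known.

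Genes that use what these carriers bring in, and genes that regulate them, were read from further lists. Of 10 genes of cystine and glutamine use, 9 rose and 1 fell with GTEA1, where 35.6% of all tested genes were called higher and 36.2% lower. With GTEA7 6 rose and 0 fell, or 5 and 1 with library size only, against 12% and 10.4% of all tested genes. ASNS, asparagine synthetase, was at 68.3 ± 6.2 CPM in GTEA1, 2.77 ± 0.35 in GTEA7 and 2.94 ± 0.3 in DMSO. CHAC1, which degrades glutathione, was at 49 ± 2.9 CPM in GTEA1, 1.43 ± 0.39 in GTEA7 and 1.17 ± 0.36 in DMSO. Neither passed with GTEA7 (adjusted p = 0.78 and 0.55). GCLM and GCLC, the subunits of the enzyme that commits cysteine to glutathione, rose with both extracts: GCLM by 2.02 ± 0.05 on the log2 scale with GTEA1 and 0.86 ± 0.052 with GTEA7, GCLC by 2.26 ± 0.043 with GTEA1 and 0.54 ± 0.043 with GTEA7. GLUL, glutamine synthetase, was the one that fell with GTEA1 (-0.49 ± 0.036). GPX4, the glutathione peroxidase that repairs lipid peroxides, was at 0.35 ± 0.04 with GTEA1 (adjusted p = 6.3e-11) and at -0.10 ± 0.04 with GTEA7 (adjusted p = 0.072; -0.15 and called lower with library size only, adjusted p = 0.0042).

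Of 14 eIF2 kinases and ATF4 pathway factors, 13 rose and 1 fell with GTEA1, and 6 rose and 1 fell with GTEA7, or 12 and 1, and 4 and 1, with library size only. Of all tested genes, 35.6% were called higher and 36.2% lower with GTEA1, and 12% and 10.4% with GTEA7. ATF4 mRNA was at 735 ± 12 CPM in GTEA1, 294 ± 11 in GTEA7 and 263 ± 8.8 in DMSO (1.48 ± 0.036 and 0.16 ± 0.036 for GTEA1 and GTEA7 over DMSO). TRIB3, a pseudokinase induced by ATF4, rose with GTEA1 (3.75 ± 0.051) and less with GTEA7 (0.34 ± 0.067, adjusted p = 9.8e-05). ATF3, another stress-induced transcription factor, rose by 3.61 ± 0.073 with GTEA1 and 0.35 ± 0.1 with GTEA7 (adjusted p = 0.0095). DDIT3, or CHOP, rose with GTEA1 (5.34 ± 0.094) and was at -0.18 ± 0.18 with GTEA7 (adjusted p = 0.55). The member that fell with either extract was EIF2AK2, the RNA-activated kinase (-0.54 ± 0.038 with GTEA1 and -0.11 ± 0.037 with GTEA7). EIF2AK4, the kinase GCN2 that senses uncharged tRNA, rose by 0.53 ± 0.038 with GTEA1. With GTEA7 it was at 0.12 ± 0.038 (adjusted p = 0.015), a call lost with library size only (0.07, adjusted p = 0.2). The kinases EIF2AK3 and EIF2AK1 also rose with GTEA1, by 0.88 ± 0.062 and 0.23 ± 0.033. With GTEA7 they were at 0.26 ± 0.065 (adjusted p = 0.0017) and 0.09 ± 0.033 (adjusted p = 0.036). For EIF2AK1 the calls with both extracts were lost with library size only.

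Of 20 tested genes of amino acid sensing by mTORC1, 11 rose and 5 fell with GTEA1, where 35.6% of all tested genes were called higher and 36.2% lower. With library size only 6 rose and 8 fell, when all tested genes split into 4828 higher and 8179 lower. With GTEA7 3 rose and 6 fell, or 2 and 6 with library size only, against 12% and 10.4% of all tested genes. RRAGD, a Rag GTPase that brings mTORC1 to the lysosome, was among those that rose with GTEA7 (0.24 ± 0.049, adjusted p = 0.00014). SESN2, the leucine sensor sestrin 2, was at 46.9 ± 3 CPM in GTEA1, 3.38 ± 0.29 in GTEA7 and 5.32 ± 0.72 in DMSO. It rose with GTEA1 (3.13 ± 0.084, adjusted p = 3.6e-35) and fell with GTEA7 (-0.66 ± 0.13, adjusted p = 0.00012). DDIT4, an mTORC1 inhibitor, likewise rose with GTEA1 (2.14 ± 0.076) and fell with GTEA7 (-0.73 ± 0.097, adjusted p = 1.2e-05). SESN3 fell with both (-1.74 ± 0.051 with GTEA1 and -0.32 ± 0.044 with GTEA7). Both extracts are read against the same 3 DMSO libraries.

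By distance between centred log2 CPM over the 11 libraries, SLC7A11 was compared with 9829 genes with a mean of at least 10 CPM. Those most like it were the glycosyltransferase GCNT3 (distance 0.82) and the ferritin heavy chain pseudogenes FTH1P7 (0.92) and FTH1P8 (0.94). Reads of these pseudogenes may not be separable from those of FTH1, which was not examined. The genes most like SLC7A5 were the glycogen phosphorylase PYGB (0.22), the receptor phosphatase PTPRH (0.24) and BCAR3 (0.24), an adaptor protein. For SLC43A1 they were ZNF333 (0.27), the kinase MKNK2 (0.34) and SBNO2 (0.34). GCNT3 was at 3.30 with GTEA1 and 1.16 with GTEA7 as log2 fold changes over DMSO, beside 3.52 and 1.36 for SLC7A11.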

How the data were processed

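Polyadenylated RNA of 11 HCT116 libraries (4 GTEA1, 4 GTEA7, 3 DMSO) was sequenced. The authors deposited raw counts of reads for each gene, in a column for each library. The submitters' processing notes list HTSeq 0.5.4, DESeq 1.10.1 and SAMtools 0.1.18, and without versions STAR, GATK and Picard. The build, annotation and strandedness of counting were not given in the sources used here. Symbols came from a table of gene names (60370 of 60624 Ensembl IDs), exon lengths and overlaps from GENCODE v29. The other 840 IDs took 0.727% of counts and were kept. Groups came from sample titles.

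Genes were filtered with filterByExpr (17963 left), scaled by TMM and tested by the robust quasi-likelihood method of edgeR 4.0.16 (R 4.3.3) in 1 model of all 11 libraries, with Benjamini-Hochberg adjustment over all tested genes and a threshold of 0.05. A standard error is the log2 fold change over the root of F. The method was tested on simulated data. Replicates differed by more than sampling noise (chi-square per gene 1.39 to 4.09). Alternatives were DESeq2 size factors, library size only, other filters, the replicate block, only the compared groups, limma-voom (limma 3.58.1), the Wald test of DESeq2 1.42.0, and leaving out each library. All columns were used. The members, lists and motifs were chosen with earlier results of these data known. Named genes are the 10 members, tested members of the list of other plasma membrane transporters, up to 5 of each further list with the smallest adjusted p with GTEA1 or that went against it, and ATF4, ATF3, DDIT3, TRIB3, SESN2, CHAC1, ASNS, GCLM and GPX4. Genes that overlap or share sequence with a member are named too, except for a result that is not reported here, as are the 3 genes nearest to SLC7A11, SLC7A5 and SLC43A1. EIF2AK1, EIF2AK3, EIF2AK4 and RRAGD were named after their values were seen, as were KRT8, KRT18, KRT19 and CDX2.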

Additional observations from a re-analysis of the deposited data

Results flagged for a closer look

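Groups of 4 libraries were examined for transporter genes on the main and further list and for the log2 ratios of light to heavy chain. Among these 56 groups, 1 had a library that stood apart by Dixon's criterion, where chance gives about 1 in 20. SLC1A2, a glutamate transporter with 203 counts in all, was at 1.839 CPM in GTEA7 replicate 4, against 1.382, 1.382 and 1.415 CPM in the other GTEA7 libraries.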

How the results depend on the processing

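The count of the 10 transporter genes called was 10 under every alternative run for GTEA1 over DMSO and for GTEA1 over GTEA7, and 4 or 5 for GTEA7 over DMSO. The gene lost in the last was SLC7A5, whose values stand in the report. Other plasma membrane transporters called in either direction numbered 8 to 14 for GTEA1 over DMSO, 3 to 5 for GTEA7 over DMSO and 10 to 13 for GTEA1 over GTEA7. The number tested changed with the filter, so these are not all out of the same 16. The 14 came without the low-count filter, when 3 were higher and 11 lower. When counts were scaled by library size only, the calls over all genes split into 1255 higher and 2954 lower for GTEA7 over DMSO, in place of 2159 and 1877, and into 5455 and 7653 for GTEA1 over GTEA7, in place of 6546 and 6510. No value of the 10 genes turned its direction where it was called. No pairing by replicate number was visible. Correlations of deviations ran from -0.055 to 0.026 between same-numbered libraries and from -0.041 to 0.043 between others. With so few libraries per group, the check cannot exclude that same-numbered libraries shared a culture or a day. With the replicate block, calls over all genes numbered 12725 for GTEA1 over DMSO, 4087 for GTEA7 over DMSO and 13016 for GTEA1 over GTEA7, and among the 10 genes the block changed the call of SLC7A5 for GTEA7 over DMSO. For GTEA1 over GTEA7, leaving out 1 library gave log2 differences of 0.178 to 0.229 for the ratio of SLC7A11 to SLC3A2 and 0.225 to 0.257 for that of SLC7A5 to SLC3A2, each with an exact permutation p of 0.0571, the smallest that 4 against 3 libraries can give. Genes with few reads, SLC6A9 and SLC43A1, had SEs of 0.11 to 0.15 against DMSO.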
